A study of Mus musculus with 2 samples.

Results

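The CoREST complex is described here through 9 genes, taken by name from the expression tables of both libraries: Rcor1, Rcor2, Rcor3, Kdm1a, Hdac1, Hdac2, Phf21a, Hmg20b and Rest. All 9 were among the 21896 genes measured in each library. RNA was sequenced from the germinal layers of the mouse cortex, the ventricular and subventricular zones (VZ–SVZ), at E13.5, strain C57/BL6, in a single library from Rcor2fl/fl embryos, hereafter the control, and a single library from Rcor2cko embryos, hereafter the mutant. Embryos of both genotypes came from crosses of Rcor2fl/+NesCre mice. In Rcor2cko embryos, Cre recombinase under the Nestin promoter removes the first several exons of Rcor2, which lie between LoxP sites, in neural progenitors and the cells they give rise to. Blood, vessel and microglial cells do not descend from these progenitors. In which cells of these embryos Cre had acted was not measured here. Whether the RNA of several embryos was pooled is not given in the sources used here.

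CoREST is a co-repressor complex in which an RCOR protein joins a histone demethylase to a pair of histone deacetylases. KDM1A (LSD1) takes methyl groups off histone H3, HDAC1 and HDAC2 take off acetyl groups, and the RCOR protein couples both activities to nucleosomes. REST, a zinc finger repressor that binds RE1 sequences in neuronal genes, is the best known of the DNA-binding proteins that bring CoREST to its targets, and it keeps neuronal genes low outside neurons and in progenitors.

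Levels are FPKM, which divides fragments by transcript length and library size, so that they can be compared between genes. Intervals beside a level are the 95% bounds deposited with it. A change is the mutant over the control on a log2 scale, with 0.1 added to each FPKM, and a gene counts as changed above 1.5-fold, or 0.58 on the log2 scale. Where a gene has 1 transcript, 1000 nt or longer, its values fall on steps of whole fragments, which were used for a 95% counting interval (exact, by Clopper-Pearson) around the log2 ratio. Scaling totals came to 18841250 fragments for the control and 25481040 for the mutant, and a level of 3 fragments on a transcript of 2000 nt would be 0.0882 and 0.0654 FPKM. The counting intervals and these floors cover counting error only. Each genotype has 1 library, so the differences have no replicate and are given without a p-value, as differences between these 2 libraries and not between genotypes. The summed FPKM of 11 cortical progenitor markers was 1060 in the control and 1191 in the mutant, with none at 0. Fabp7 was at 372 and 539 FPKM, and without it the other 10 summed to 688 and 652 FPKM. Of the 11, 7 were lower and 4 higher in the mutant. Past 1.5-fold was 1, Emx2 at -0.62, beside 5.54% of the genes that reached 1 FPKM in either library. Xist, the RNA that coats the inactive X chromosome, stood at 177 FPKM in the control and 0.109 FPKM in the mutant, and all 9 members lie on autosomes.

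Rcor2 was the only member changed above 1.5-fold, and it was lower in the mutant. The other 8 members differed by between -0.25 and 0.18 on the log2 scale. So 1 of 9 members was past 1.5-fold, and it is the gene deleted by design, so its call says nothing about the other members. None of those 8 was past 1.5-fold, beside 5.54% of the 11777 genes that reached 1 FPKM in either library. With 8 genes the count is close to that share. All 9 members passed that filter in both libraries. Of the 9, 5 were lower and 4 were higher in the mutant, with a median log2 change of -0.05, or -0.02 over the 8 members other than Rcor2, where the median of all genes tested was -0.03. The plot of levels shows the members side by side.

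**Figure D1:**
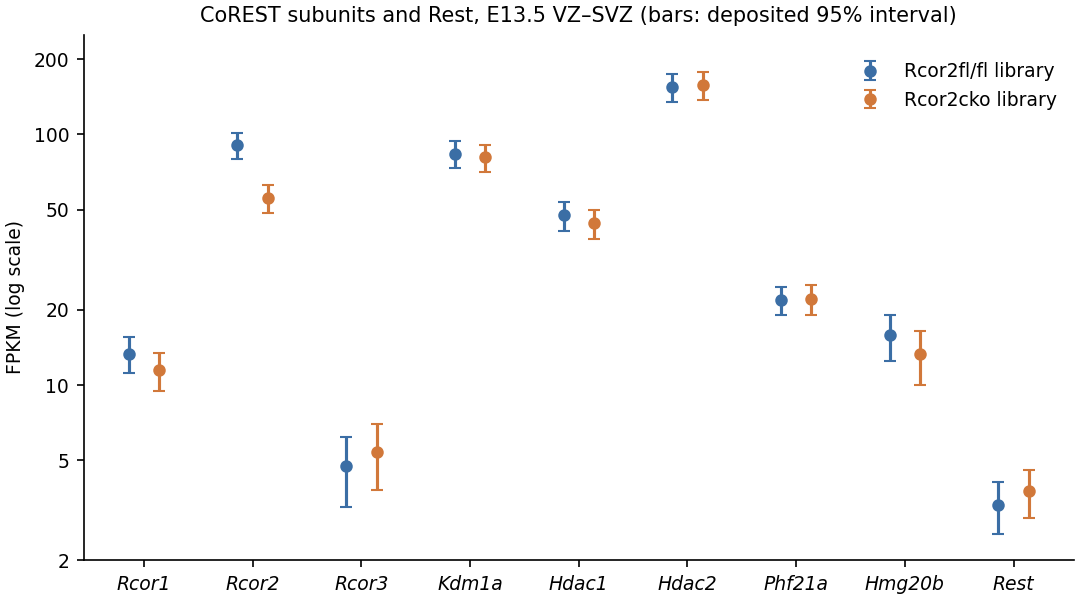
Level of each member in FPKM on a log axis in the Rcor2fl/fl (blue) and Rcor2cko (orange) library, with the deposited 95% interval as bars. The bars of both libraries overlap for 8 of the 9 genes, and the pair for Rcor2, at 90.6 and 55.7 FPKM, does not overlap.

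The members spanned a 46.4-fold range of levels in the control and a 41.9-fold range in the mutant. In the control the order from high to low was Hdac2, Rcor2, Kdm1a, Hdac1, Phf21a, Hmg20b, Rcor1, Rcor3 and Rest. Rcor2 and Kdm1a, Phf21a and Hmg20b, Hmg20b and Rcor1, and Rcor3 and Rest were neighbours whose intervals overlapped, so that these pairs cannot be ordered. In the mutant Kdm1a stood above Rcor2, without overlap, and the remaining order was the same. There Rcor2 and Hdac1, Hmg20b and Rcor1, and Rcor3 and Rest overlapped.

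Among the 3 RCOR paralogues, which occupy the same place in the complex, Rcor2 had most of the RNA in both libraries. Rcor2 lies at chr19:7341815-7349715 on the plus strand of mm9 (GENCODE vM1 on NCBIM37). It was at 90.6 FPKM (79.6 to 102) in the control and at 55.7 FPKM (48.6 to 62.7) in the mutant, from 3108 and 2571 fragments. The mutant level was thus 61.4% of the control level. Its log2 change was -0.70, with a counting interval from -0.78 to -0.63 that lies wholly past 1.5-fold. Of the 11331 genes at 1 FPKM or more in both libraries, 77, or 0.680%, had a change as low as that of Rcor2.

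The transcript model behind the Rcor2 value is 2014 nt long and starts at position 7344254, the start of the annotated 11-exon transcript Rcor2-202. Other annotated transcripts have 1 or 2 exons upstream of that start, which the value leaves out. Of its length, 97.1% lies from the second exon on, 82.4% from the fifth, 62.0% from the eighth and 43.8% in the last exon. Which of the exons lie between the LoxP sites is not given in the sources used here, so the part of the mutant value that comes from exons outside them was not tested. The paper reports that RNA over the exons between the LoxP sites was missing from Rcor2cko cortex at E13.5. It also reports complete loss of Rcor2 protein from Rcor2cko brains by western blot. With an Rcor2 RNA probe in situ, and with an antibody, the paper found no signal in Rcor2cko cortex. The part of the mutant value that comes from cells without Cre was not tested here. Markers of cells outside the neural lineage were detected in both libraries: the summed FPKM of 7 endothelial markers was 31.0 and 33.4, of 7 microglial markers 16.3 and 24.3, and of 6 erythroid markers 89.4 and 80.6, in the control and the mutant. Of the microglial markers 4 were more than 1.5-fold higher in the mutant, of the endothelial and erythroid markers 0, beside 3.79% of all genes tested. In bulk tissue, fewer cells of a type and less RNA per cell cannot be told apart.

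Rcor1, the founding member of the family, is on chromosome 12 and was measured at 13.4 FPKM (11.1 to 15.6) in the control and 11.5 FPKM (9.46 to 13.46) in the mutant. From 636 and 736 fragments, its log2 change was -0.22 with a counting interval from -0.38 to -0.07. Rcor3, on chromosome 1, was at 4.74 FPKM (3.27 to 6.21) and 5.38 FPKM (3.804 to 6.96). Its log2 change of 0.18 rests on 125 and 191 fragments, and the counting interval from -0.15 to 0.52 includes 0. Neither paralogue was higher in the mutant beyond counting error, and both intervals stay within 1.5-fold. The Rcor3 locus overlaps the annotated gene Gm10516, whose reads may not be fully separable from its own.

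The sum over the 3 paralogues was 108.7 FPKM in the control and 72.5 FPKM in the mutant. Rcor1 and Rcor3 together made up 18.1 FPKM of it in the control and 16.8 FPKM in the mutant, so that the difference in the sum lay mostly in Rcor2. Rcor2 held 83.4% of the sum in the control and 76.8% in the mutant. The share of Rcor1 was 12.3% and 15.8%, and that of Rcor3 4.36% and 7.42%. Rcor2 exceeded Rcor1 by 6.79-fold in the control and by 4.86-fold in the mutant, and it exceeded Rcor3 by 19.1-fold and 10.3-fold. Rcor2 was therefore the most abundant RCOR transcript, by gene-level FPKM, in the mutant as well, where its FPKM includes whatever exons are not deleted.

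**Figure D2:**
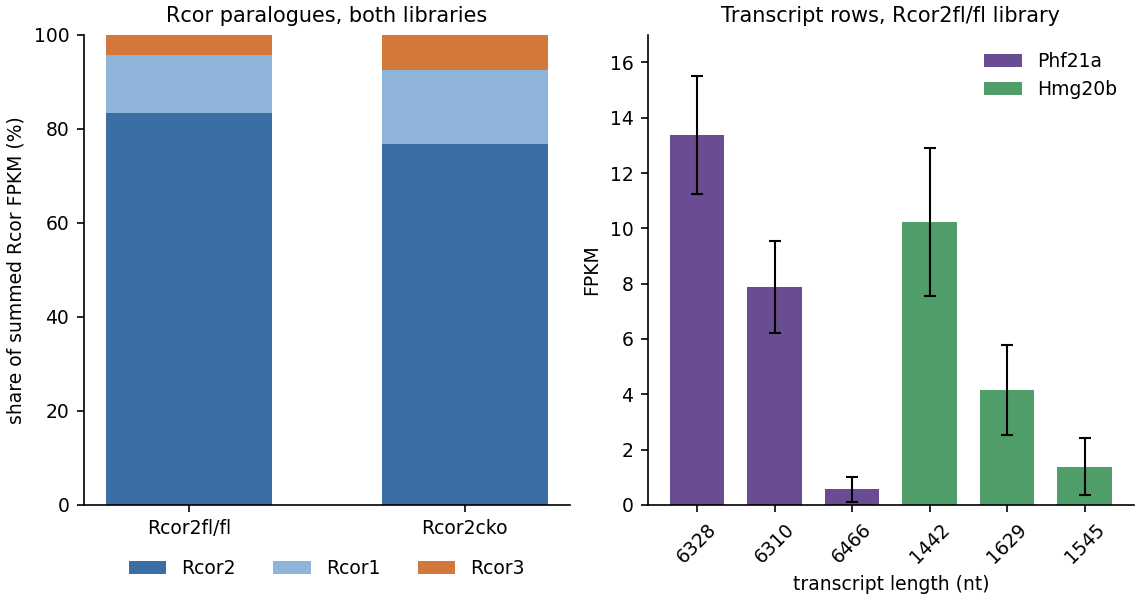
Left, the share in percent of Rcor2, Rcor1 and Rcor3 in their summed FPKM in each library, with Rcor2 at 83.4% in Rcor2fl/fl and 76.8% in Rcor2cko. Right, FPKM of each transcript of Phf21a and Hmg20b in the Rcor2fl/fl library by transcript length in nt, with the deposited 95% interval as bars; 1 transcript of each gene, at 13.4 and 10.2 FPKM, is above the others.

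The catalytic subunits were close to equal in both libraries. Kdm1a, the demethylase, lies at chr4:136106455-136158638 on the minus strand and was at 83.7 FPKM (73.4 to 94.1) in the control and 81.1 FPKM (71.0 to 91.1) in the mutant. With 4450 and 5812 fragments its log2 change was -0.05, and the counting interval from -0.10 to 0.0099 is narrow and includes 0. The level of Rcor2 was 1.08 times that of Kdm1a in the control and 0.687 times in the mutant. All RCOR transcripts together came to 1.299 times the level of Kdm1a in the control and to 0.894 times in the mutant. Both mutant values include whatever Rcor2 exons are not deleted, so neither is a ratio of intact RCOR transcripts to Kdm1a. Kdm1b, a relative of Kdm1a that works outside CoREST, was lower than Kdm1a by 8.14-fold and 8.04-fold.

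Hdac2 was the most abundant member in both libraries, at 154 FPKM (135 to 174) in the control and 158 FPKM (138 to 178) in the mutant. Its log2 change was 0.03 from 5261 and 7245 fragments, with a counting interval from -0.02 to 0.08. Hdac1, at 47.5 FPKM (41.3 to 53.8) and 44.3 FPKM (38.4 to 50.2), had a log2 change of -0.10 from 1592 and 1997 fragments, with an interval from -0.20 to -0.0069. Hdac2 exceeded Hdac1 by 3.24-fold in the control and by 3.56-fold in the mutant. Both deacetylases summed to 202 FPKM in each library. The value of Hdac1 is uncertain, because its transcript has an unspliced near copy at chr17:78890879-78892880 on the plus strand of mm9, in which 1924 of 1991 aligned nt (96.6%) match and to which reads could be assigned in part. Alignment of the longest annotated transcript of each member to the genome gave 1 unspliced copy for Hdac1 and none for the other 8 members. A copy needed at least 90% match over at least 500 aligned nt. Without these limits Hdac1 had 10 alignments and each other member 1.

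At this depth the counting interval leaves out 0 for many genes. The counting interval excluded 0 for 3 of the 7 members with recovered fragments, Rcor1, Rcor2 and Hdac1, each lower in the mutant, and for 37.2% of the 8460 genes tested for which fragments were recovered. It included 0 for Rcor3, Kdm1a, Hdac2 and Rest. The call for Hdac1 depends on the scaling: with median, total FPKM or upper-quartile scaling, alternatives added after the data were seen, its interval included 0 (with median scaling from -0.17 to 0.026), and that of Hdac2 excluded 0 on the higher side (from 0.013 to 0.12), while Rcor1 and Rcor2 kept theirs. Of the 3, Rcor2 alone was also apart by the deposited intervals. A change above 1.5-fold with deposited intervals that do not overlap was found for 2.56% of all genes tested.

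**Figure D3:**
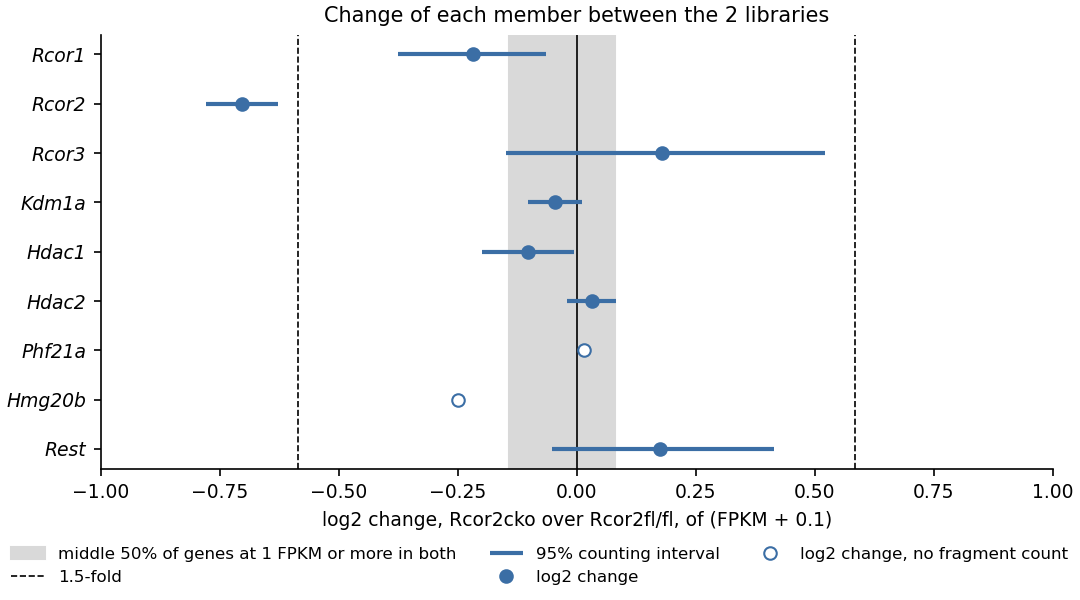
Log2 change of each member (points) with its 95% counting interval (lines) where fragments were recovered; open points are genes with several transcripts, for which they were not. The grey band runs from -0.14 to 0.08, the interquartile range of genes at 1 FPKM or more in both libraries, dashed lines mark 1.5-fold, and Rcor2 at -0.70 is the 1 member beyond them.

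The structural subunits that bind nucleosomes and DNA were at intermediate levels. Phf21a (BHC80), which reads unmethylated histone H3, was at 21.8 FPKM (19.1 to 24.5) in the control and 22.0 FPKM (19.01 to 25.03) in the mutant, a log2 change of 0.01. Its locus contains the microRNA gene Mir1955. Its paralogue Phf21b was higher than Phf21a by 1.72-fold and 1.71-fold, at 37.5 and 37.7 FPKM. Hmg20b (BRAF35), an HMG box protein, was at 15.8 FPKM (12.5 to 19.1) and 13.2 FPKM (10.01 to 16.5). Its log2 change of -0.25 was the lowest after Rcor2, and the deposited intervals of both libraries overlap.

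Phf21a and Hmg20b are the 2 members with several transcripts, which the control values list one by one and the mutant values do not. In the control the Phf21a transcript of 6328 nt was at 13.4 FPKM (11.2 to 15.5), or 61.3% of the gene. The transcript of 6310 nt was at 7.87 FPKM (6.21 to 9.52), and that of 6466 nt at 0.564 FPKM (0.105 to 1.02). For Hmg20b the transcript of 1442 nt was highest at 10.2 FPKM (7.57 to 12.9), or 65.0% of the gene, with the transcripts of 1629 and 1545 nt at 4.15 and 1.37 FPKM. The intervals of the highest transcript and the next did not overlap in either gene. No transcript-level comparison with the mutant can be made.

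Rest was the lowest member in both libraries. At chr5:77694516-77715457 on the plus strand, it was at 3.32 FPKM (2.56 to 4.09) in the control and 3.77 FPKM (2.94 to 4.60) in the mutant. The log2 change was 0.18 from 255 and 390 fragments, and the counting interval from -0.05 to 0.41 includes 0 and excludes a rise of 1.5-fold. Kdm1a exceeded Rest by 25.2-fold and 21.5-fold.

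The genes of 26 neuronal proteins known as REST targets were set beside this. They include synaptic vesicle proteins, channels, secretogranins and neuronal cytoskeleton. Of the 26, 23 reached 1 FPKM in at least 1 library, and 5 were past 1.5-fold, 4 higher and 1 lower in the mutant. That is 21.7% of those tested, beside 5.54% of all genes, with 3.79% of all genes higher and 1.76% lower. Of the 4 higher genes, Calb1 and Scg2 passed the filter only through the mutant, at 0.496 and 0.927 FPKM in the control. The list was chosen with earlier results of these data known, so the share is a description only. The median log2 change of the 23 was -0.12, with 10 higher and 13 lower, so the list as a whole did not lie above the median of -0.03 of all genes.

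The most abundant REST targets were Tubb3, a neuronal tubulin, at 568 and 521 FPKM, Stmn2, a microtubule regulator of growing axons, at 153 and 158 FPKM, and Gria2, an AMPA receptor subunit, at 134 and 137 FPKM. Their log2 changes were -0.12, 0.04 and 0.03. Calb1, a calcium buffer, was at 0.496 FPKM in the control and 1.78 FPKM in the mutant, which is 1.66 on the log2 scale. Scg2, a secretogranin of dense-core vesicles, was at 0.927 and 2.85 FPKM, which is 1.52 on the log2 scale. Scn3a, a sodium channel of the embryonic brain, was at 7.797 and 11.96 FPKM, which is 0.61 on the log2 scale. Syt4, a synaptotagmin, was at 15.5 and 23.6 FPKM, or 0.60 on that scale, and is named after its value was seen, because it is the fifth of the 5. Cplx1, a complexin of synaptic vesicle release, was lower, at 15.6 and 9.36 FPKM, which is -0.73 on the log2 scale. The deposited intervals of both libraries were apart for all 5 genes, which were picked as past 1.5-fold. A change above 1.5-fold with intervals apart was found for 2.56% of all genes tested. Of the 4 genes that were higher, 2, Calb1 and Scg2, were under 1 FPKM in the control. The count of 5 was 3 with a pseudocount of 1, which leaves out Scn3a and Syt4, and 3 with a filter of 5 FPKM, which leaves out Calb1 and Scg2.

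Markers of other cells moved between the same libraries. Of 7 ventral telencephalic markers, which label interneuron progenitors and their progeny, 6 were higher by more than 1.5-fold, beside 3.79% of all genes tested. The summed FPKM of the 7 was 27.6 in the control and 63.4 in the mutant, with none at 0. The sum of 7 choroid plexus markers was 1.04 and 62.9 FPKM, with Ttr and Kl at 0 in the control. Ttr made up 57.8 FPKM of the mutant sum, and the other 6 summed to 1.04 and 5.12 FPKM. The sum of 5 cortical neuron markers, Tubb3 among them, was 1201 and 1150 FPKM. The part of these cells in the REST target values was not tested.

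Short windows around the starts of these target genes were searched for exact matches to parts of the RE1 element. A missing match does not show that a gene lacks the element. The windows of 300 bases around gene starts, 250 before and 50 after, are from RefSeq (GRCm38.p6), and 18 of the 26 target genes have one. The element was searched on both strands as its left part TTCAGCACC, its right part GGACAGCGC, and the cores AGCACC and GGACAG set 2 bases apart, which share letters with either part. The left part was present for 4 of the 18 genes and for 0.433% of 27025 genes with a window. The right part was present for 2 of the 18 and 0.477% of all, and the joined form for 1 of the 18 and 0.0592% of all. Since REST binds RE1 sequences and these genes were listed as its known targets, the list itself favours genes with the element. The 5 genes with a match are printed below, 30 bases each, 5′ to 3′ on the strand that reads the motif, with the motif in capitals.
Scg2, chr1:79440021-79440050, plus strand: ccgtTTCAGCACCggacagctcctcggctt
Gria2, chr3:80802985-80803014, plus strand: cgattttAGCACCgcGGACAGcgctttggt
Celsr3, chr9:108825914-108825943, plus strand: tccgTTCAGCACCgtgggcagcacttctgt
Syn1, chrX:20921125-20921154, minus strand: cggaTTCAGCACCgcggtcagagccttcgc
Unc13a, chr8:71671727-71671756, plus strand: ttcagcaccgggggcgcGGACAGCGCctga

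Unc13a holds both parts, the left one in lower case here, and Gria2 holds the right part as well as the spaced cores. Of these 5 genes Scg2 was past 1.5-fold, at 1.52, and the other 4 were not: Gria2 was at 0.03, Syn1, a vesicle phosphoprotein, at 0.16, Celsr3, an adhesion cadherin of axon tracts, at -0.15 and Unc13a, a vesicle priming factor, at -0.24. Syn1, Celsr3 and Unc13a are named for their sequence. A match is a description of these letters and not a binding site. None of the 3 forms was present in the windows of the 7 members that have one, Rcor1, Rcor2, Rcor3, Kdm1a, Hdac2, Phf21a and Hmg20b. Those windows were rich in CG, with 31 CG and 69.3% G or C for Rcor1, 21 and 67.3% for Rcor2, 47 and 81.7% for Rcor3, 29 and 61.3% for Kdm1a, 36 and 69.7% for Hdac2, 31 and 70.0% for the first start of Phf21a, and 34 to 35 and 65.7 to 66.0% for 3 starts of Hmg20b, beside a median of 7 CG and 52.7% over 32851 windows. An exception was the second start of Phf21a, with 1 CG and 33.3%.

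Other proteins that bind CoREST or bring it to DNA, with relatives of the members such as Kdm1b and Phf21b, were listed as 21 genes. Among them are zinc finger partners (Zmym2, Zmym3), CtBP co-repressors, the methyltransferases Ehmt1 and Ehmt2, and DNA-binding repressors of the Snail, Gfi, Zeb and Insm families. Of the 21, 16 reached 1 FPKM, and 0 of these were past 1.5-fold in either direction, beside 5.54% of all genes, so that with 16 genes the count is close to that share. Of the 16, 6 were higher and 10 lower, with a range from -0.22 to 0.49, the latter for Zfp217, and a median of -0.04. Ctbp1 was at 96.8 and 92.7 FPKM, Ehmt2 at 53.8 and 51.2 FPKM, and Insm1, which drives progenitors towards neurogenesis, at 47.2 and 45.5 FPKM. The other 5, Rreb1, Snai1, Snai2, Gfi1 and Gfi1b, were below 1 FPKM in both libraries.

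Hdac1 and Hdac2 also serve the NuRD and Sin3 complexes and others, and Hdac3 the NCoR complex. All 28 genes listed for these complexes were tested, and 0 were past 1.5-fold, beside 5.54% of all genes. They ranged from -0.46 to 0.25, with 9 higher and 19 lower and a median of -0.07, where 4992 of all genes tested were higher and 6785 lower. Chd4, the NuRD remodeller, was at 82.7 FPKM in the control and 72.4 FPKM in the mutant, Rbbp4, a histone chaperone, at 64.0 and 60.8 FPKM, and Mta2, a NuRD scaffold, at 59.9 and 56.5 FPKM. In the control the FPKM of Rcor2, 90.6, was above that of each of these 28 genes, although its interval overlaps that of Chd4, the highest.

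**Figure D4:**
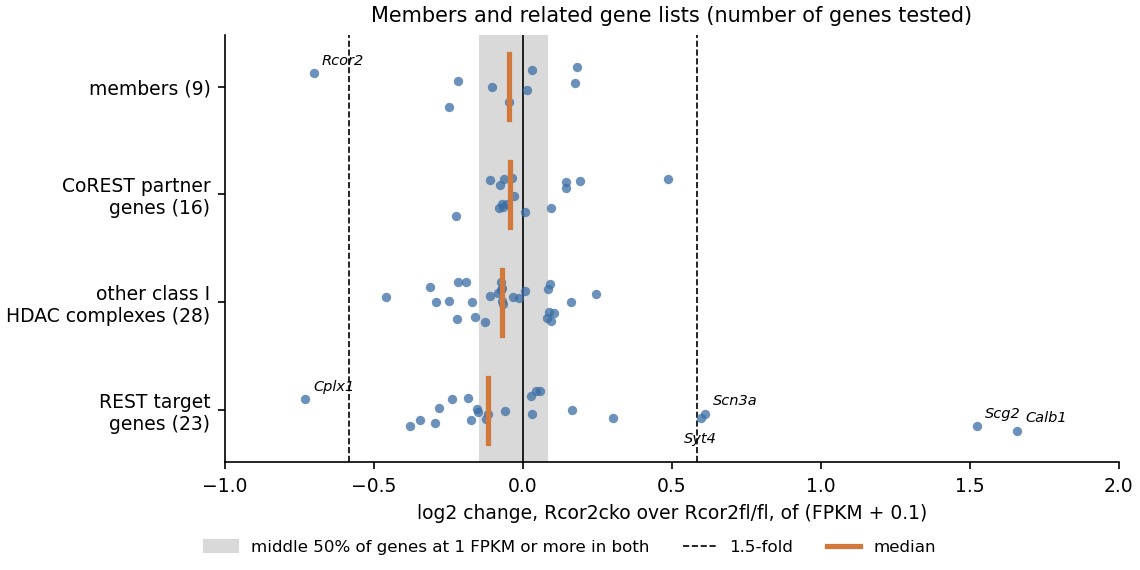
Log2 change of each gene tested (points) among the members, CoREST partner genes, genes of other class I HDAC complexes and REST targets, with the number of genes tested in brackets and the median as an orange line. Points are spread vertically for legibility, the grey band is the interquartile range of genes at 1 FPKM or more in both libraries, and outside the dashed lines at 1.5-fold lie Rcor2 and the REST targets Cplx1, Syt4, Scn3a, Scg2 and Calb1.

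The genes nearest to Rcor2 in level in both libraries were Eif2s3x, Fezf2 and Ina, by Euclidean distance of log2(FPKM + 0.1) over the 2 libraries. Eif2s3x, an X-linked translation factor subunit that escapes X inactivation, was at 93.2 and 64.4 FPKM, at a distance of 0.21. Fezf2, a transcription factor of cortical progenitors and deep-layer neurons, was at 76.6 and 54.5 FPKM, at a distance of 0.24, and Ina, a neuronal intermediate filament, at 84.4 and 68.2 FPKM, at 0.31. Their log2 changes of -0.53, -0.49 and -0.31 were smaller than that of Rcor2. Beside Eif2s3x stands the Xist difference between the libraries, whose part in it was not tested.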

How the data were processed

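RNA from the E13.5 VZ–SVZ was isolated with RNeasy columns and made into libraries with a stranded mRNA kit, 1 per genotype. The authors mapped reads to mm9, and the submitters' processing notes name TopHat 1.3.3 and Cufflinks 1.2.0. The strand setting of the quantification is not given in the sources used here. The authors deposited FPKM values with 95% bounds, in 27641 transcript rows for Rcor2fl/fl and 21896 gene rows for Rcor2cko. The status was other than OK in 281 and 93 rows, none of a member.

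Transcript rows were summed per gene, with half-widths of their intervals combined in quadrature. Genes that reached 1 FPKM in either library were compared by log2 of (FPKM + 0.1), without further normalization. Fragments were recovered for 14350 genes, after subtracting 194 and 201 nt from the transcript length, and 99.3% of 4015 and 99.4% of 3953 values of up to 100 fragments lay within 0.1 of a whole number. The largest deviation among members was 0.08. The steps were tested on simulated data. Named in the lists are the 3 genes of highest mean FPKM and up to 4 past 1.5-fold by size of change, with others noted in the text. The members and lists were chosen with earlier results of these data known. Positions are from GENCODE vM1. Near copies were found with minimap2 2.31-r1302, on the splice preset. Python 3.11.15, numpy 2.4.6, pandas 2.3.3, scipy 1.17.1 and matplotlib 3.10.9 were used. E15.5 was not analysed here. The values of some list genes are not reported here, although the counts include them.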

Additional observations from a re-analysis of the deposited data

How the results depend on the processing

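Other pseudocounts (1, 0.01 and none), median, total FPKM and upper-quartile scaling, and the ratio of recovered fragments moved none of the 7 members with recovered fragments outside its counting interval. The same pseudocounts and scalings, without the ratio of fragments, kept Phf21a and Hmg20b within intervals formed from their deposited bounds. Rcor2 stayed between -0.70 and -0.67. No paired analysis was possible because each genotype has 1 library, and for the same reason no replicate could be left out.

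Taking the highest transcript per gene, which by construction lowers the Rcor2fl/fl library only, gave log2 changes of 0.72 for Phf21a and 0.37 for Hmg20b, a median log2 change of 0.032 over the members, and past 1.5-fold 2 members (Rcor2 and Phf21a), 4 CoREST partner genes, 8 REST targets and 3 genes of other class I HDAC complexes. Above 2-fold there were 0 members and 2 REST targets. Without the filter there was 1 CoREST partner gene, Snai2. There were 3 REST targets with a pseudocount of 1 and 3 with a filter of 5 FPKM in either library. The 2-fold threshold and the filters change by construction what is called or admitted, and a pseudocount of 1 shrinks the ratios of low genes. Of the named genes that are no members, Scn3a went below 1.5-fold with a pseudocount of 1, at 0.56, and Ehmt2 and Gria2 went past it with the highest transcript, at 0.75 and 1.05. Depth limits Rcor3 and Rest most, at 125 and 255 fragments in the Rcor2fl/fl library.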

Other observations

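The genes that flank Rcor2 on chromosome 19 were at equal levels in both libraries. Within 50 kb of Rcor2, 2 genes were listed, and 0 of the 2 were past 1.5-fold, beside 5.54% of all genes tested. Naa40, an amino-terminal acetyltransferase of histones, was at 18.2 FPKM in the Rcor2fl/fl control and 18.0 FPKM in the Rcor2cko mutant, with a log2 change of -0.02 from 1057 and 1410 fragments, with a counting interval from -0.13 to 0.10. Mark2, a microtubule affinity kinase of cell polarity, was at 12.8 and 12.5 FPKM, or -0.03 on the log2 scale over several transcripts, and its deposited intervals overlap. These genes were chosen by position.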
